A study of Mus musculus with 40 samples.

Results

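The comparison was between rib tissue of skeletally immature mice at day 0 post-resection (0dpr), the earliest stage collected after surgery, and rib tissue of immature mice at baseline. All libraries that the labels assign to these stages and this age entered it, which gave 4 libraries at 0dpr (replicates 1 to 4) and 4 at baseline (replicates 2, 3, 4 and 6), 8 of the 39 libraries analysed in the series, and all 21204 genes of the filtered count table were tested. In the study, a segment of rib bone was removed and bulk RNAseq of the tissue at the resection site was carried out at baseline and at 0, 2, 5, and 14dpr in immature and mature mice. The mice were female wild type C57BL/6, 7 weeks old in the immature groups and over 10 months old in the mature groups, with no transgene or drug in any group. By the study's text the baseline mice had not been operated on, while the labels speak of collection following resection for every sample, and the former was used. How many minutes or hours after surgery the 0dpr tissue was taken, and at which hour of the day either group was collected, are not given in the sources used here. The tissue was composite and held bone, bone marrow and intercostal muscle, so that fewer cells of a type and less RNA per cell cannot be told apart in any result below.

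Tissue injury is met within minutes by transcription of immediate early genes, which need no new protein for their induction. They encode transcription factors such as the FOS and JUN proteins, which pair to form AP-1, and the EGR zinc fingers, and their induction is curbed by early feedback genes that encode phosphatases and mRNA-decay factors. In bone, this first response precedes the entry of inflammatory cells and the proliferation of periosteal progenitors. Levels are given as CPM (library-size-scaled counts, TMM-normalized), changes as log2 fold changes of 0dpr over baseline with their standard error (SE), and a gene is said to have changed where edgeR's quasi-likelihood test gave an adjusted p below 0.05 over all genes.

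The 8 libraries held 6989381 to 13862053 counts. Libraries at 0dpr differed in tissue content more than those at baseline. Liver genes, a list of 23 measured genes of hepatocyte secretion and metabolism, summed to 12876 CPM in 0dpr replicate 1 and to 77.8 to 198 CPM in the other 7 libraries. Alb, the albumin gene, stood at 4704 CPM in that library and at 0.454 to 6.6 CPM elsewhere, so every result was also computed without 0dpr replicate 1. Bone marrow content varied too. Neutrophil genes summed to 2303, 8534, 1166 and 3749 CPM in 0dpr replicates 1, 2, 3 and 4, against 8714 to 14281 CPM at baseline. Osteoblast genes summed to 6190 CPM in 0dpr replicate 3, below the 13949 to 30281 CPM at baseline, whereas the other 3 libraries at 0dpr held 19992 to 25646 CPM. Fast muscle contraction genes summed to 129770, 158120, 241680 and 175940 CPM at 0dpr and to 92309 to 119490 CPM at baseline, with no overlap. Defining markers of bone (Col1a1, Runx2), muscle and marrow were read in all 8 libraries, as the label of composite tissue states.

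**Figure D1:**
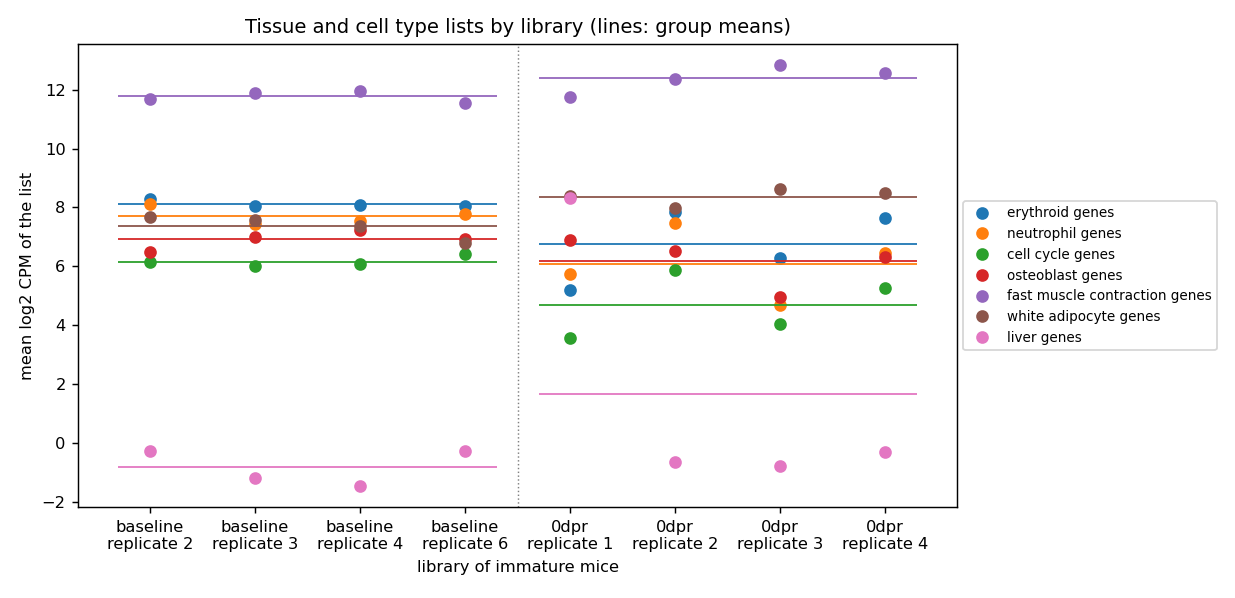
Mean log2 CPM of 7 gene lists (vertical axis) in each of the 8 libraries of immature mice (horizontal axis), with lines at the group means. The liver list stands at 8.32 in 0dpr replicate 1 and below 0 in all other libraries, and the neutrophil, erythroid and cell cycle lists vary more at 0dpr than at baseline.

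In immature mice, 1268 genes were higher and 989 lower at 0dpr than at baseline, 5.98% and 4.66% of all genes tested, and 5490 genes had an unadjusted p below 0.05. The median log2 fold change over all genes was 0.00. Without 0dpr replicate 1, 747 genes (3.52%) were higher and 500 (2.36%) lower, and 639 of the higher and 405 of the lower genes were called in both fits. With spread estimated from the 8 libraries alone, 48 genes (0.226%) were called in either direction, 34 higher and 14 lower. More genes were higher than lower also under RLE size factors (1586 and 894) and with edgeR's own filter (1632 and 920). Fewer were higher than lower with the replicate number as a block (1036 and 1274). The same held without baseline replicate 3 (712 and 779), baseline replicate 4 (852 and 918) or 0dpr replicate 2 (1455 and 1958). All 8 fits that each left out 1 of these libraries called the same 407 genes, 264 higher and 143 lower. Without 0dpr replicate 3, 652 genes were higher and 154 lower. With a muscle score as a covariate, the mean log2 CPM of the fast muscle contraction list, 602 were higher and 209 lower. With an erythroid score, the same mean of the erythroid list, 215 were higher and 113 lower. Counts of list members below are to be read beside these totals and shares, each for its own fit.

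Immediate early genes were higher at 0dpr, led by Fosb, Egr1 and Fos, which were among the 12 largest increases that met the rule for naming. Of 30 measured members, 11 were higher and 0 lower, with a median log2 fold change of 0.62, and 6 were higher without 0dpr replicate 1, with a median of 0.35, and 10 without 0dpr replicate 3. Fosb, which encodes an AP-1 subunit, stood at 0.457, 2.06, 1.02 and 0.67 CPM in the baseline libraries and at 64.4, 23.4, 17.5 and 13.8 CPM at 0dpr. All 4 libraries at 0dpr lay above all baseline libraries, and the log2 fold change was 4.80 ± 0.58 (SE; adjusted p = 5.78e-06). Fos, the founding member of that family, stood at 16.6, 19.9, 14 and 11 CPM at baseline and at 307, 99.5, 132 and 101 CPM at 0dpr. The groups did not overlap, replicate 1 was the highest, and Fos rose by 3.38 ± 0.36 on the log2 scale (adjusted p = 9.91e-07), or by 2.82 without that library (adjusted p = 2.29e-06). Both genes were also called with the spread of the 8 libraries alone (adjusted p = 0.0315 for each). With an erythroid score as a covariate, chosen after the data were seen, 4 immediate early genes were called.

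Egr1, a zinc finger factor induced by growth factors and wounding, stood at 10.2, 13.6, 8.96 and 6.32 CPM at baseline and at 320, 43.6, 57.6 and 36.4 CPM at 0dpr. Its increase of 3.55 ± 0.54 (adjusted p = 0.000148) became 2.21 without replicate 1 (adjusted p = 0.00165), with no overlap in either case. Ier2, a nuclear protein of the same early class, stood at 6.97, 7.11, 8.17 and 6.99 CPM at baseline and at 46.2, 21.2, 14 and 22.7 CPM at 0dpr. It rose in all 4 libraries, by 1.82 ± 0.33 (adjusted p = 0.00086).

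The remaining members of the group differed in how far they rested on 1 library. Jun, the AP-1 partner of FOS proteins, rose from 36.9 to 56.1 CPM at baseline to 84.1 to 165 CPM at 0dpr (log2 fold change 1.25 ± 0.35, adjusted p = 0.0197), and its adjusted p was 0.0841 without replicate 1. Ccn1, a secreted matrix protein of cell adhesion, stood at 52.6 to 85.7 CPM at baseline and at 119 to 280 CPM at 0dpr (adjusted p = 0.00748), with an adjusted p of 0.0615 when replicate 1 was left out. Atf3, a stress-response factor, read 82.3 CPM in replicate 1 and 14.8 to 22.6 CPM in the other 3 libraries at 0dpr, against 9.09 to 12.9 CPM at baseline. Its log2 fold change of 1.70 (adjusted p = 0.00339) became 0.82 without replicate 1 (adjusted p = 0.0692). Junb overlapped between groups, with 8.61 to 23.6 CPM at baseline and 13 to 124 CPM at 0dpr, and its log2 fold change of 1.63 (adjusted p = 0.0371) became 0.73 without replicate 1 (adjusted p = 0.373). Btg2, an antiproliferative factor, read 316 CPM in replicate 1 and 100 to 131 CPM in the others, against 88.9 to 99.0 CPM at baseline. In Klf4 and Srf, replicate 1 was not the highest library. Srf, which encodes the serum response factor that drives many immediate early genes, stood at 42.3 to 47.1 CPM at baseline and at 52.6 to 71.1 CPM at 0dpr (log2 fold change 0.47 ± 0.15, adjusted p = 0.0407). Klf4 rose by 0.74 ± 0.20 (adjusted p = 0.0141), and by 0.74 without replicate 1 (adjusted p = 0.0302).

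**Figure D2:**
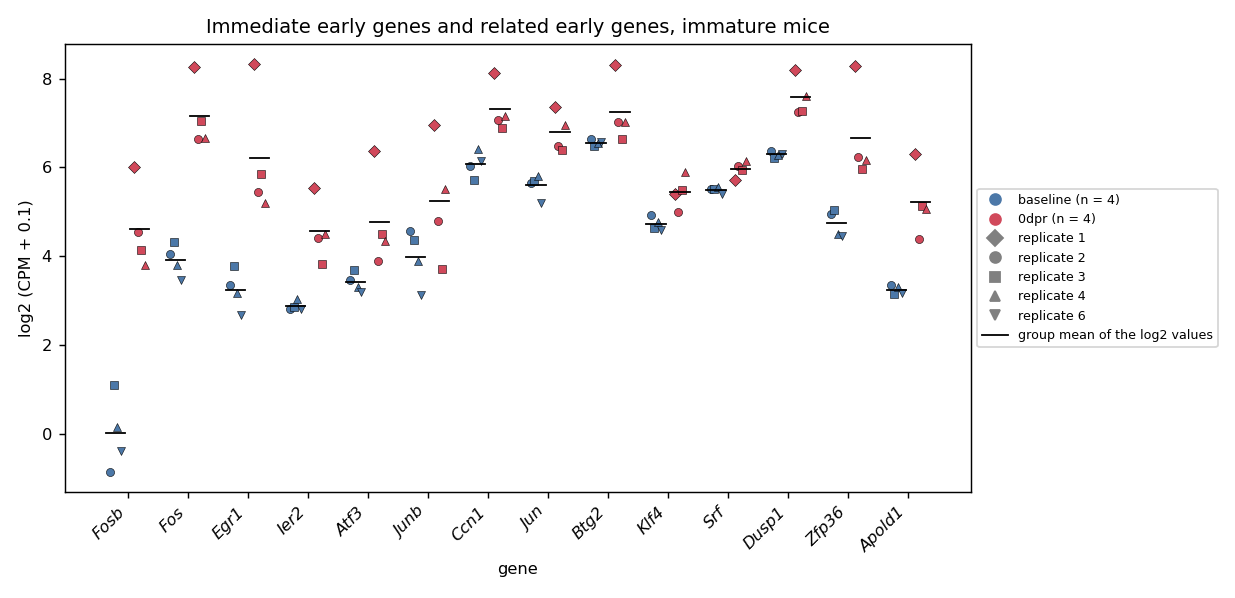
Log2 (CPM + 0.1) of immediate early genes and of Dusp1, Zfp36 and Apold1 in the 4 baseline and 4 0dpr libraries of immature mice, with a symbol for each replicate number and lines at the group means. Fosb and Fos do not overlap between groups, and 0dpr replicate 1 (diamond) is the highest library for most genes, Klf4 and Srf excepted.

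Early feedback regulators followed the same pattern, with 9 of 30 measured members higher, 0 lower and a median of 0.61, and with 5 higher and a median of 0.23 without replicate 1. With the erythroid score as a covariate, 2 were higher and the median was 0.27. Dusp1, the phosphatase that inactivates stress-activated kinases, stood at 82.8, 74.2, 77.4 and 79 CPM at baseline and at 292, 153, 155 and 195 CPM at 0dpr. The baseline values spanned a narrow range, all 0dpr values lay above it, and the increase was 1.34 ± 0.28 (adjusted p = 0.00291). Zfp36, an RNA-binding protein that speeds the decay of cytokine mRNAs, stood at 31, 33, 22.5 and 22 CPM at baseline and at 313, 75.6, 62 and 71.6 CPM at 0dpr. It rose by 2.26 ± 0.34 (adjusted p = 0.000147), and by 1.34 without replicate 1 (adjusted p = 0.00103). Rasd1, a small GTPase induced by glucocorticoids, rose by 2.08 (adjusted p = 0.00387), Dusp10 by 0.90 (adjusted p = 0.00431) and Spry2, an inhibitor of receptor tyrosine kinase signalling, by 0.69 (adjusted p = 0.00853). In contrast, Rgs16 read 88.9 CPM in replicate 1 and 2.36 to 3.91 CPM in the other 3 libraries at 0dpr, and its log2 fold change of 4.36 became 1.39 without replicate 1 (adjusted p = 0.088).

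Promoter sequences of these genes are shown because these genes rose together. Of the 8 called immediate early genes with the largest change, Egr1 left out, 7 had an entry in the RefSeq promoter table of GRCm38.p6 (Fosb, Fos, Atf3, Junb, Ccn1, Jun and Btg2), and the 250 bases before the annotated start were searched on both strands. The 4 sequences below are those of Fosb at chr7:19310046-19310295 (minus strand), Fos at chr12:85473640-85473889 (plus strand), Junb at chr8:84978749-84978998 (minus strand) and Btg2 at chr1:134079156-134079405 (minus strand), each 5′ to 3′ along its gene, with matches to the cAMP response element in capitals.
Fosb: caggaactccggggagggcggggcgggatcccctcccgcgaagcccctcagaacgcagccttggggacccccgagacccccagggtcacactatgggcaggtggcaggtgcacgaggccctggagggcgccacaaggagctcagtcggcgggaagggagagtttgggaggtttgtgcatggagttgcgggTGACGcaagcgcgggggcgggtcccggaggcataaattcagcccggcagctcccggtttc
Fos: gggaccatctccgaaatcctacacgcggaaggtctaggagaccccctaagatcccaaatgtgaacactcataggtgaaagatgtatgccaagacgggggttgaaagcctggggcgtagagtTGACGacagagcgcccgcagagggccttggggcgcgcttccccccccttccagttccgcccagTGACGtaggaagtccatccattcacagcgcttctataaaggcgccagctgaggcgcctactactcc
Junb: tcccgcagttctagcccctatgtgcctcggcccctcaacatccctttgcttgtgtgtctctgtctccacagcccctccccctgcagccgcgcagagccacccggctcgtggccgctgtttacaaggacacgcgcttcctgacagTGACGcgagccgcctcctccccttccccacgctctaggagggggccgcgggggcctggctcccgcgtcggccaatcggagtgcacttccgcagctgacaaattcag
Btg2: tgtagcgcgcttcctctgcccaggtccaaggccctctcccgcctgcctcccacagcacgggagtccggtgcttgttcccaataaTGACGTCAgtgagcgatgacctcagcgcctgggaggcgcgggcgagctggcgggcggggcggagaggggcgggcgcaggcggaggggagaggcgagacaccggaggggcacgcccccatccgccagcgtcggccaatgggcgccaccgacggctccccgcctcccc
The core of the cAMP response element (TGACG, either strand) was present in 6 of the 7 promoters and in 17.7% of 32817 promoters of the same length. In Fos it lay from 129 to 125 and from 66 to 62 bases before the start, and in Fosb once, from 60 to 56 bases before it. The full palindrome (TGACGTCA, which contains the core on both strands) was found in Btg2 and in 1.55% of all promoters. The CArG box, which serum response factor binds, was found in 0 of the 7 windows and in 1.47% of all, the AP-1 site (TGANTCA) in 0 and 6.75%, and the heat shock element (GAANNTTC) in 1, that of Jun, and 6.69%. These are matches of letters within 250 bases, and whether any of them was bound was not measured. Sites further upstream, or variants with other letters, were not searched, so a count of 0 does not show that a gene lacks such a site.

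Some acute cytokines, chemokines and adhesion molecules were higher, while the list as a whole depended on replicate 1. Its median log2 fold change was 0.26 with all libraries and -0.18 without replicate 1. Its members summed to 784 to 940 CPM at baseline and to 1169, 545, 384 and 602 CPM in 0dpr replicates 1, 2, 3 and 4. Of 28 measured members, 6 were higher and 2 lower, against 5.98% and 4.66% of all genes, so the lower count was near that share. Without replicate 1, 3 were higher and 1 lower, against 3.52% and 2.36% of all genes. Cxcl1, a chemokine that attracts neutrophils, read 0, 0.309, 0.681 and 0 CPM at baseline and 40, 2.34, 2.55 and 2.64 CPM at 0dpr. All libraries at 0dpr exceeded all at baseline, replicate 1 by far the most, and the log2 fold change of 5.54 ± 0.89 (adjusted p = 0.000277) became 3.29 without it (adjusted p = 0.0054). Ccl2, which attracts monocytes, stood at 0.571, 0.618, 1.25 and 1.44 CPM at baseline and at 4.63, 3.7, 5.74 and 3.9 CPM at 0dpr. Here the 4 libraries at 0dpr lay close together, with an increase of 2.20 ± 0.46 (adjusted p = 0.00293). Its neighbour Ccl7 rose by 2.24 (adjusted p = 0.00844). Gdf15, a stress cytokine, was read almost only in replicate 1, at 20.3 CPM against 0 to 0.417 CPM in the other libraries at 0dpr, and its log2 fold change of 4.08 turned to -0.85 without that library (adjusted p = 0.687). Vcam1, an adhesion molecule of endothelium and of marrow macrophages and stroma, fell from 264, 213, 194 and 246 CPM to 55.1, 123, 36.5 and 91.3 CPM, with a log2 fold change of -1.58 (adjusted p = 0.000419). It was lowest in replicates 1 and 3, the libraries in which neutrophil genes were lowest, and its adjusted p with the erythroid score as a covariate was 0.0043.

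Clock genes changed in both directions. In the circadian loop, the activators CLOCK and ARNTL (BMAL1), or NPAS2 in place of CLOCK, drive transcription of the repressors of the PER and CRY families and of output factors such as DBP and HLF, which then fall as the repressors accumulate. Of 18 measured clock genes, 5 were higher and 5 lower, against 5.98% and 4.66% of all genes. Arntl stood at 11.8, 25.7, 12.5 and 18.6 CPM at baseline and at 49.6, 60.9, 68 and 46.9 CPM at 0dpr. The lowest value at 0dpr was above the highest at baseline, and Arntl rose by 1.72 ± 0.39 (adjusted p = 0.00619). Npas2 stood at 2.4, 2.78, 1.48 and 2.78 CPM at baseline and at 15.1, 12.1, 8.56 and 6.96 CPM at 0dpr, again without overlap (2.16 ± 0.55, adjusted p = 0.0119). Clock, at 54.4, 72.4, 60 and 58.4 CPM and then 124, 116, 159 and 102 CPM, had the smallest adjusted p of the list (1.03 ± 0.13, adjusted p = 7.52e-06). Nfil3, a repressor of the DBP family's targets, rose by 1.23 (adjusted p = 0.0068) and Bhlhe40, a repressor of CLOCK and ARNTL, by 0.65 (adjusted p = 0.0437).

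Per2, Per3, Dbp, Hlf and Ciart were lower. Per2 stood at 40.9, 28.9, 39.3 and 50.4 CPM at baseline and at 14.9, 7.77, 9.47 and 16.1 CPM at 0dpr. The groups did not overlap, and the log2 fold change was -1.73 ± 0.43 (adjusted p = 0.00936). Per3 stood at 57.8, 62.7, 69.1 and 50.2 CPM and then at 23.8, 17.4, 30.3 and 19.6 CPM (-1.39 ± 0.42, adjusted p = 0.0293). Dbp (-2.25, adjusted p = 0.03), Hlf (-1.51, adjusted p = 0.0235) and Ciart (-2.43, adjusted p = 0.0209) were also lower. Without replicate 1, 4 members were higher and 3 lower, the adjusted p of Per3 and Dbp being 0.0579 and 0.0635, and without replicate 3, 4 were higher and 0 lower. With the erythroid score as a covariate, 2 clock genes were higher and 1 lower, namely Arntl (adjusted p = 0.0464), Clock (adjusted p = 0.000277) and Per2 (adjusted p = 0.0196). Npas2 and Per3 were not called in that fit (adjusted p = 0.101 and 0.169). Baseline replicate 6 stood apart for Nr1d1, which encodes the repressor REV-ERBα, with 8.13 CPM against 104 to 121 CPM in the other 3 baseline libraries, and it also held the lowest Dbp and Ciart and the highest Per2 and Nfil3 of the baseline libraries. Nr1d1 itself was not called (log2 fold change 0.19, adjusted p = 0.847). Arntl, Npas2, Clock, Per2 and Per3 were 5 of the 48 genes called from the 8 libraries alone. Whether the hour of collection differed between the groups was not tested, since the hour is not given.

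**Figure D3:**
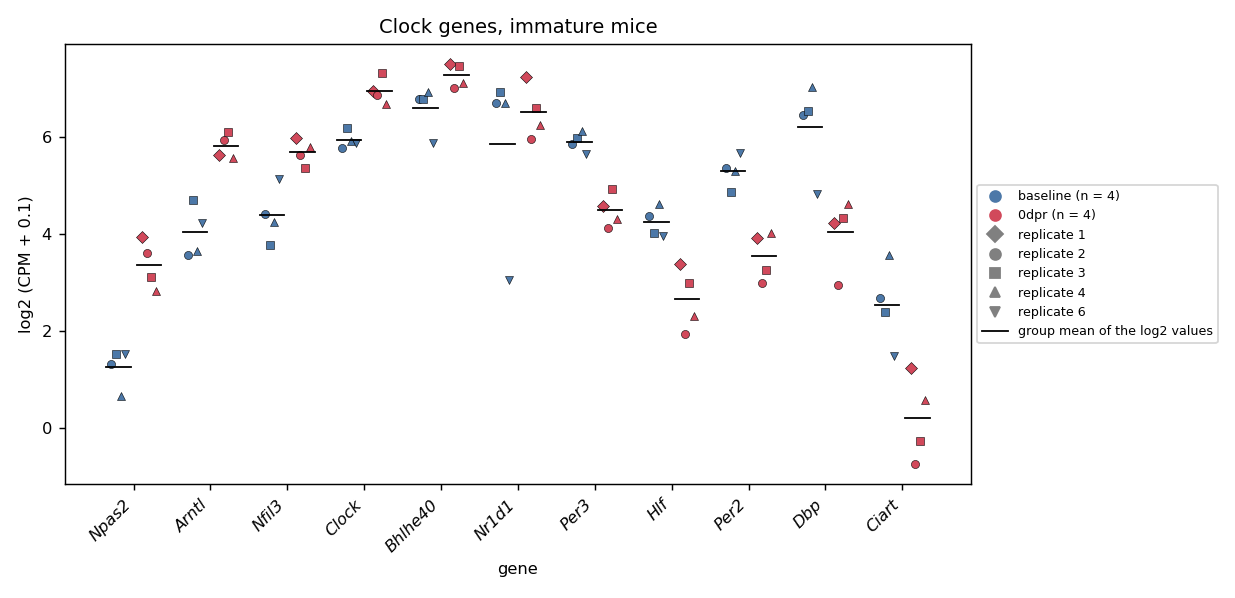
Log2 (CPM + 0.1) of 11 clock genes in the 4 baseline and 4 0dpr libraries of immature mice, with a symbol for each replicate number and lines at the group means. Npas2, Arntl, Nfil3 and Clock are higher in every 0dpr library than in any baseline library, and Per3, Hlf, Per2, Dbp and Ciart are lower, whereas Nr1d1 overlaps and is lowest in baseline replicate 6.

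Hypoxia and glycolysis genes were higher in part, with 6 of 18 measured members higher, 0 lower and a median of 0.53, and with the same counts without replicate 1. Vegfa, the main growth factor of blood vessels, stood at 83.3, 76.9, 82.3 and 43.6 CPM at baseline and at 164, 146, 177 and 147 CPM at 0dpr. The libraries at 0dpr were closely grouped above all baseline values, and Vegfa rose by 1.15 ± 0.23 (adjusted p = 0.00227). Ldha, the muscle-type lactate dehydrogenase, rose by 0.75 (adjusted p = 0.00466), from 925 to 1092 CPM at baseline to 1123 to 2230 CPM at 0dpr. Adm, which encodes the vasodilator adrenomedullin, rose by 1.00 (adjusted p = 0.0202) and Pdk1, a kinase that diverts pyruvate from mitochondria, by 0.59 (adjusted p = 0.00518). With a muscle score as a covariate, 3 members of the list were called higher, and 2 with the erythroid score. Endothelial genes were higher in 6 of 16 measured members and lower in 0, also without replicate 1, with 4 higher without replicate 3 and 3 with the erythroid or the muscle score. Kdr, the main VEGF receptor, stood at 85.9, 71.1, 72.7 and 50.7 CPM and then at 147, 118, 181 and 106 CPM (0.98 ± 0.16, adjusted p = 0.000371). Cdh5, which joins endothelial cells, stood at 71.1, 65.4, 63.2 and 60 CPM and then at 116, 107, 131 and 113 CPM (0.85 ± 0.17, adjusted p = 0.00197). Neither gene overlapped between groups. Tek, Cldn5, Emcn and Pecam1 were the other members called, with log2 fold changes of 0.76, 0.79, 0.53 and 0.45.

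Of 20 measured fibrillar collagen and matrix genes, 5 were higher and 0 lower, against 5.98% and 4.66% of all genes. The median was 0.26, with negative changes in 8. Without replicate 1, 3 were higher, against 3.52% of all genes, and 2 were higher with the erythroid score. Fbn1, the fibrillin of microfibrils, stood at 434, 341, 318 and 196 CPM at baseline and at 1020, 556, 1008 and 675 CPM at 0dpr. It did not overlap between groups and rose by 1.34 ± 0.22 (adjusted p = 0.000419). Col5a3 rose by 1.31 (adjusted p = 0.0018) and Eln, the elastin gene, by 1.45 (adjusted p = 0.00401). Fn1, which encodes fibronectin and is also made in quantity by liver, read 2870 CPM in replicate 1 and 530 to 805 CPM in the other libraries at 0dpr, and its log2 fold change of 1.17 became 0.29 without replicate 1 (adjusted p = 0.51). Col1a1 stood at 5105, 8136, 11917 and 11007 CPM at baseline and at 11288, 8376, 1594 and 7903 CPM at 0dpr. Replicate 3 was the only library at 0dpr below the range of baseline, and the difference was not called (adjusted p = 0.666).

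Skeletal muscle genes had positive changes throughout, of which few passed the test. All 20 fast muscle contraction genes had a positive log2 fold change, 3 were called higher (Neb, Casq1 and Tpm1) and the median was 0.64. Of 12 slow muscle genes, 2 were higher (Casq2 and Mybpc1), with a median of 0.63. All 24 nuclear oxidative phosphorylation genes had positive changes with a median of 0.29, and 3 were called. Without replicate 1, 9 were called, and 0 without replicate 3 or with the muscle score. Of 13 mitochondrially encoded genes, 3 were higher (mt-Nd6, mt-Co1 and mt-Cytb), and the share of all counts on them was 4.58 to 8.63% at 0dpr and 3.48 to 5.22% at baseline, highest in 0dpr replicate 3. Without that library, 0 mitochondrially encoded genes were called. Among 20 muscle stress genes, 5 were higher, and 2 without replicate 1, 2 without replicate 3, 1 with the muscle score and 0 with the erythroid score. Xirp1, which binds actin at sites of muscle damage, rose from 128, 164, 147 and 72.4 CPM to 244, 223, 421 and 216 CPM (1.11 ± 0.31, adjusted p = 0.0187). Myod1, the myogenic master regulator, rose by 1.11 (adjusted p = 0.00997). With the muscle score as a covariate, 0 members of the fast and slow lists were called. That score is made of the fast genes themselves, so for the fast list this result is not a test. Without replicate 3, the library with the most muscle reads, 0 members of either list were called. Heat shock chaperones were not a changed group in immature mice, with 1 of 20 higher (Hspb8) and 1 lower (Dnajb1).

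Adipocyte genes were higher, with 8 of 16 measured white adipocyte genes called in that direction, 0 lower and a median of 0.98, against 5 called and a median of 0.94 without replicate 1, 2 called without replicate 3 and 3 with the erythroid score. Car3, a carbonic anhydrase abundant in fat and in slow muscle, stood at 2125, 2958, 2688 and 1823 CPM at baseline and at 3931, 5969, 10503 and 8173 CPM at 0dpr. No library overlapped, and Car3 rose by 1.57 ± 0.31 (adjusted p = 0.0021). Cfd, which encodes adipsin, stood at 889, 658, 545 and 409 CPM and then at 1603, 1328, 1584 and 1720 CPM (1.32 ± 0.37, adjusted p = 0.0203). Fabp4 rose by 1.06 (adjusted p = 0.0112) and Adipoq, the adiponectin gene, by 0.99 (adjusted p = 0.0283). Brown fat genes differed from library to library. Ucp1, which uncouples respiration in brown adipocytes, read 248, 0, 128 and 33.7 CPM at 0dpr against 0.825 to 5.6 CPM at baseline. Replicate 2 at 0dpr held none, so the groups overlapped, and the log2 fold change of 5.46 (adjusted p = 0.029) was not past the threshold without replicate 1 (adjusted p = 0.0876). Cidea was distributed alike, with 42.9, 1.85, 65.6 and 22 CPM at 0dpr.

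**Figure D4:**
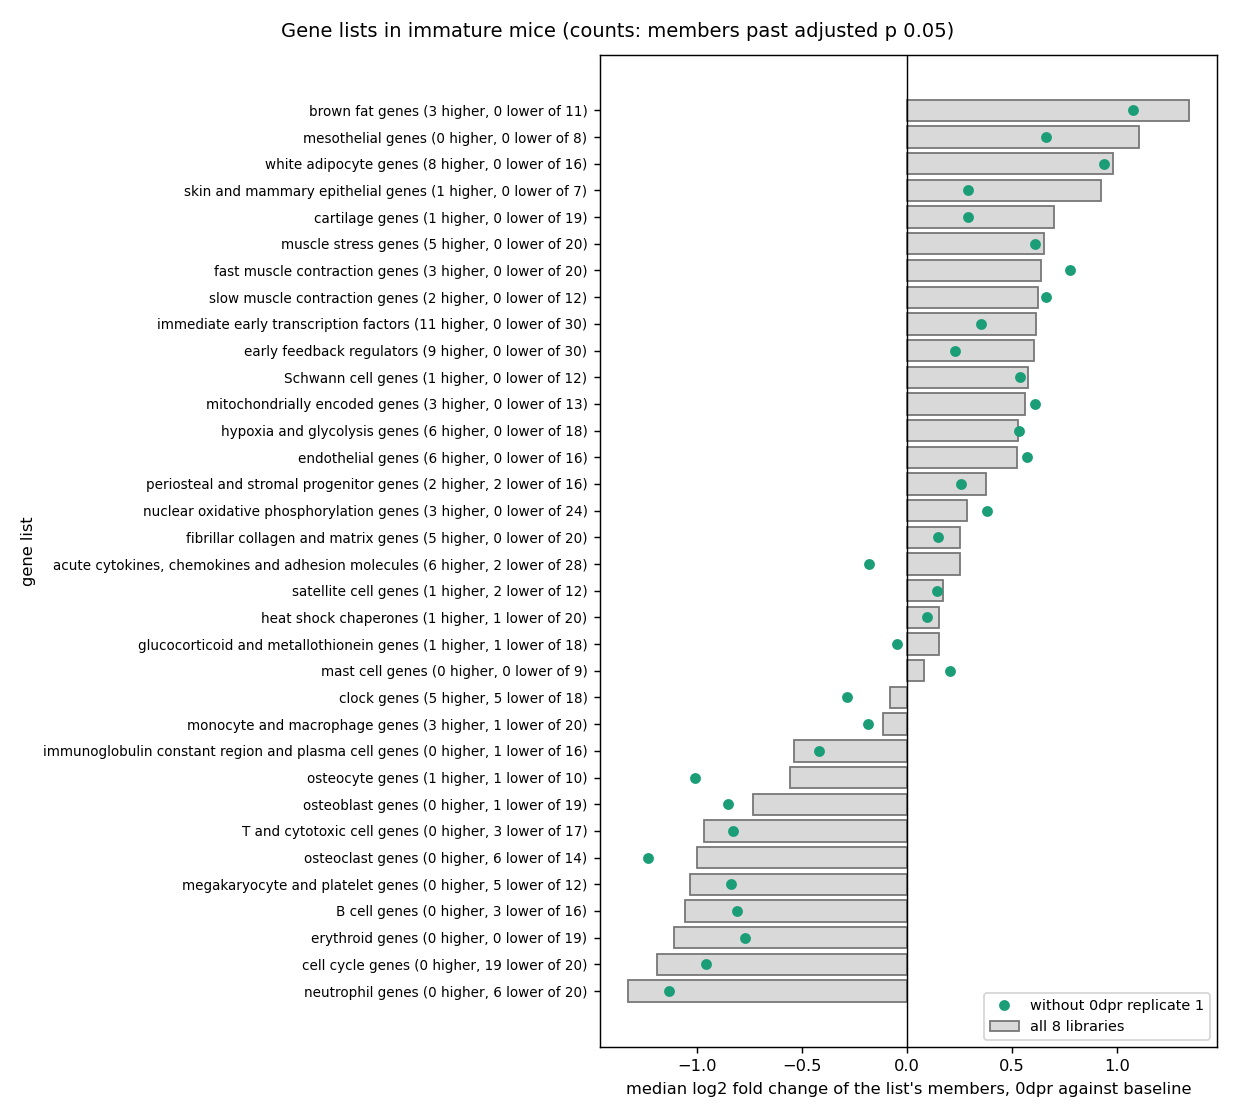
Median log2 fold change of 0dpr against baseline in immature mice for 34 gene lists (bars, all 8 libraries; points, without 0dpr replicate 1), with the number of members higher and lower beside each name. Adipocyte, muscle and immediate early lists lie above 0 and marrow, cell cycle and osteoclast lists below it. The liver list (median 8.11) and the lung list, whose members are near 0 reads, are left out.

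With all libraries, few osteoblast and osteocyte genes were called, in shares near those of all genes, whereas osteoclast genes were lower in part. Of 19 osteoblast genes, 17 had negative changes and 1 was called lower, with a median of -0.73. Without replicate 1, 4 were lower, against 2.36% of all genes, and without replicate 3, 0 were lower. Ibsp, which encodes bone sialoprotein, stood at 325, 417, 435 and 431 CPM at baseline and at 207, 195, 78.3 and 160 CPM at 0dpr (-1.33 ± 0.41, adjusted p = 0.0349). Of 10 osteocyte genes, 1 was higher and 1 lower, with a median of -0.55, and without replicate 1, 1 was higher and 2 were lower. Mepe, a matrix phosphoglycoprotein of osteocytes, stood at 17, 20.4, 25 and 20.1 CPM at baseline and at 3.88, 4.68, 1.09 and 4.03 CPM at 0dpr. Every 0dpr library was far below every baseline library, replicate 3 the lowest, and Mepe fell by 2.61 on the log2 scale (SE 0.68, adjusted p = 0.0134). With the erythroid score as a covariate its adjusted p was 0.163. Sost, another osteocyte product, overlapped between groups, at 4.68 to 10.9 CPM and 0.273 to 5.3 CPM, and was not called (adjusted p = 0.235). Ackr3, a scavenging receptor for CXCL12, rose by 1.03 (adjusted p = 0.0108). Osteoclast genes were lower in 6 of 14 measured members and higher in 0, with negative changes in all 14. Ctsk, the collagen-cleaving protease of osteoclasts, stood at 480, 634, 716 and 570 CPM and then at 372, 322, 114 and 259 CPM (-1.17 ± 0.34, adjusted p = 0.0248). Acp5 fell by 1.05 (adjusted p = 0.0309), Mmp9 by 1.32 (adjusted p = 0.0175) and Itgb3 by 0.95 (adjusted p = 0.0122). The count of osteoclast calls was 6 without replicate 1, and 0 without replicate 3 or with the erythroid score.

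Cell cycle genes were lower in 19 of 20 measured members, with a median of -1.19 and negative changes in all 20. The number of calls, though not the sign of the median, depended on single libraries. Cdk1, the mitotic kinase, stood at 60.2, 60.2, 58.4 and 64.5 CPM at baseline and at 5.83, 46.7, 10.4 and 30.9 CPM at 0dpr (-1.38 ± 0.38, adjusted p = 0.0181). Replicates 1 and 3 were the lowest, as they were for neutrophil and erythroid genes, and replicate 2 was close to baseline. Without replicate 1, 5 cell cycle genes were lower (median -0.96), against 2.36% of all genes. Without replicate 3, 3 were lower (median -0.94), against 154 of all 21204 genes. With the erythroid score, 0 were lower (median -0.83). Neutrophil genes had negative changes in all 20 measured members, 6 of them called, with a median of -1.33, with 2 called without replicate 1, and 0 without replicate 3 or with the erythroid score. Mmp8, the neutrophil collagenase, stood at 217, 119, 128 and 152 CPM and then at 38.7, 83.1, 19.8 and 40.5 CPM (-1.76 ± 0.44, adjusted p = 0.0103). Erythroid genes, of which 19 were measured, had negative changes in all 19 (median -1.11), and 0 were called. Their mean log2 CPM, which is the erythroid score, was 8.05 to 8.30 at baseline and 5.20 to 7.84 at 0dpr, without overlap. In a fit with this score as a covariate, the score and the group therefore cannot be fully told apart. Of 12 megakaryocyte and platelet genes, 5 were lower, and 0 without replicate 1. Among 20 monocyte and macrophage genes, 3 were higher (Cd14, Folr2 and Lyve1) and 1 lower (Cd68), against 5.98% and 4.66% of all genes. The lower count was near that share. Changes were negative in 14, with a median of -0.11. Without replicate 1, or without replicate 3, 1 was higher, and 0 with the erythroid score.

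Of 16 B cell genes, 3 were lower and 0 higher, with 2 lower without replicate 1 and 1 without replicate 3 or with the erythroid score. Cr2, the complement receptor of mature B cells and follicular dendritic cells, stood at 7.65, 6.7, 4.43 and 10.7 CPM at baseline and at 0.896, 1.73, 0.637 and 1.53 CPM at 0dpr. The groups lay far apart, and Cr2 fell by 2.62 on the log2 scale (SE 0.56, adjusted p = 0.00339). Of 16 immunoglobulin constant region and plasma cell genes, 1 was lower, near the share of all genes, with positive changes in 6 and a median of -0.54. With the erythroid score 1 was higher, 0 were lower and the median was 0.14. The lower gene was Ighd, the constant region of naive B cells, which stood at 26.7, 26.4, 14.1 and 41.5 CPM and then at 5.38, 8.26, 3.19 and 6.12 CPM (-2.25 ± 0.51, adjusted p = 0.00574). The variable segment genes Iglv3, Ighv10-1 and Igkv6-15 fell by 3.56, 3.72 and 3.04, from baseline means of 6.41, 3.92 and 6.47 CPM, and reads may be shared among near-identical segments. Ms4a1, which encodes CD20, had a log2 fold change of -1.34 without passing the threshold (adjusted p = 0.0892). Gimap7, a GTPase of lymphocytes, and H2-Eb2, of the MHC class II locus, were lower too, with baseline means of 2.90 and 2.24 CPM and 0dpr means of 0.404 and 0.195 CPM. With the erythroid score as a covariate, the adjusted p of Cr2 was 0.0453 and that of Ighd 0.114.

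Other genes met the rule for naming through the size of their change. Tfap2a, which encodes the transcription factor AP-2α, had 0 reads in all baseline libraries and 3.88, 1.23, 0.819 and 2.5 CPM at 0dpr, which made it at least 6.6-fold higher against a floor of 3 reads per library. Aqp8, an aquaporin of liver, pancreas and gut, had 0 reads at baseline and 22.7, 0.74, 0.546 and 0.139 CPM at 0dpr, so that most of its reads lay in the library with liver genes. Naip1 read 6.42, 0.37, 1.00 and 2.09 CPM at 0dpr and 0 to 0.114 CPM at baseline, highest in replicate 1. Pkd1l2 read 9.18 CPM in replicate 4 and 0.247 to 1.2 CPM in the other 3, against 0 to 0.228 CPM at baseline. Wnt2, which encodes a secreted Wnt ligand, stood at 1.37, 0.722, 0.454 and 0.287 CPM and then at 10.8, 1.97, 7.19 and 3.9 CPM (3.06 ± 0.58, adjusted p = 0.00153). The loci Gm43063, B430119L08Rik and Mir133a-1 were higher, and Phtf1os, Gm10184, Gm44260 and Mir451a lower, all at mean levels below 5 CPM. Phtf1os and B430119L08Rik are annotated as antisense and Gm43063 as sense intronic, and whether the counts used strand is not stated, so their reads cannot be told apart from those of the genes they overlap. Reads on Mir133a-1 and Mir451a may come from longer transcripts across these loci, since the libraries were not made from small RNA. Where these reads fell was not examined.

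Mature mice were compared in the same way, from libraries that the comparison in immature mice did not use. In mature mice 2517 genes (11.9%) were higher and 2258 (10.6%) lower at 0dpr. Liver genes summed to 415, 613, 98.9 and 94.3 CPM in the mature 0dpr libraries, against 59 to 99.9 CPM at mature baseline. Of the 2257 genes called in immature mice, 61.3% were also called in mature mice, of the 4775 called in mature mice 29.0% were called in immature mice, and 1382 of the 1384 shared calls had the same direction. The difference between ages in the change from baseline to 0dpr passed the threshold for 3 genes (0.0141%), with 1712 genes at an unadjusted p below 0.05. DESeq2 called 19 such genes, and 0 were called from the 16 libraries alone. The lists that were called in many members in mature mice and in few in immature mice, such as fast muscle (20 and 3 of 20), neutrophil (16 and 6 of 20) and heat shock genes (8 and 1 of 20 higher), held 0 genes with a called difference between ages.

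Apold1, an early response gene of endothelial cells, was called with a larger increase in immature mice, a call that was lost in most fits with a library left out. It stood at 10.2, 8.76, 9.87 and 9 CPM at baseline and at 78.6, 21, 35.1 and 33.5 CPM at 0dpr in immature mice, and at 18.3, 15, 21 and 25 CPM and then 21.6, 15.6, 19.6 and 24.7 CPM in mature mice. The immature groups did not overlap and the mature groups did, the log2 fold change being 2.15 in the former (adjusted p = 2.16e-05) and 0.04 in the latter (adjusted p = 0.938), with a difference of 2.11 ± 0.39 (adjusted p = 0.0371). With 1 library of either age left out at a time, the difference passed the threshold in 5 of 16 fits, with adjusted p of 0.00633 to 0.157. The highest p came without immature 0dpr replicate 1, where the difference was 1.64, and it was not called with the replicate block (adjusted p = 0.0813) or the muscle score (adjusted p = 0.279). Immature baseline values were also the lower ones, below every mature library. Scgb2b27, a secretoglobin gene, stood at 5.71, 6.08, 5.67 and 4.88 CPM and then at 2.54, 1.6, 1 and 1.11 CPM in immature mice, and at 2.72, 1.17, 1.87 and 1.01 CPM and then 4.71, 3.74, 4.21 and 5.7 CPM in mature mice. It moved in opposite directions without overlap in either age (difference -3.29 ± 0.52, adjusted p = 0.00526). Mucl2, a mucin-like secreted protein gene, did the same with group means of 34.3 ± 8.78 and 13.6 ± 9.12 CPM (SD) in immature and 8.79 ± 3 and 28.7 ± 7.04 CPM in mature mice (difference -3.06 ± 0.54, adjusted p = 0.023), although its immature groups overlapped. With a library left out, the difference was called in 16 of 16 fits for Scgb2b27 and in 7 of 16 for Mucl2. In mature mice, 7 immediate early genes were higher and 2 lower, and 5 clock genes were higher and 0 lower. Fos and Fosb rose there by 1.77 and 3.73 (adjusted p = 0.000315 and 3.36e-05). Arntl, Npas2 and Clock rose by 1.59, 1.84 and 0.83 (adjusted p = 0.00347, 0.0179 and 4.51e-05). The clock genes Per2 and Per3 were not called in mature mice (adjusted p = 0.166 and 0.281). The differences between ages of Per2 and Per3 were not called either (adjusted p = 0.725 and 0.779).

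At later stages of immature mice, which are given as levels without a test, the means of the early genes were lower than at 0dpr and above those at baseline. Fos stood at 15.4 ± 3.78 CPM (SD) at baseline, 160 ± 99.3 at 0dpr, 68.6 ± 24.3 at 2dpr, 44.9 ± 20.4 at 5dpr and 49.4 ± 7.10 at 14dpr. Fosb stood at 1.05, 29.8, 4.43, 4.02 and 4.01 CPM at the same stages, and Apold1 at 9.45, 42, 11.5, 14.8 and 25. Cxcl1, with 0.248 CPM at baseline, stood at 7.45 ± 1.56 CPM at 2dpr, and its 0dpr mean of 11.9 ± 18.8 was carried by replicate 1. Arntl had its highest mean at 0dpr (56.3 ± 9.86 CPM) and stood at 19.9 to 25.7 CPM at 2, 5, and 14dpr, close to its baseline of 17.1 ± 6.46. Per2 did not return to its baseline of 39.9 ± 8.84 CPM, with means of 15.3 to 19 CPM from 2dpr on. Mepe stayed at 2.45 to 3.73 CPM at 2 and 5dpr and was at 18.3 ± 9.56 CPM at 14dpr. Cr2 stood at 0.341 ± 0.253 CPM at 2dpr and 0.108 ± 0.0834 CPM at 5dpr.

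**Figure D5:**
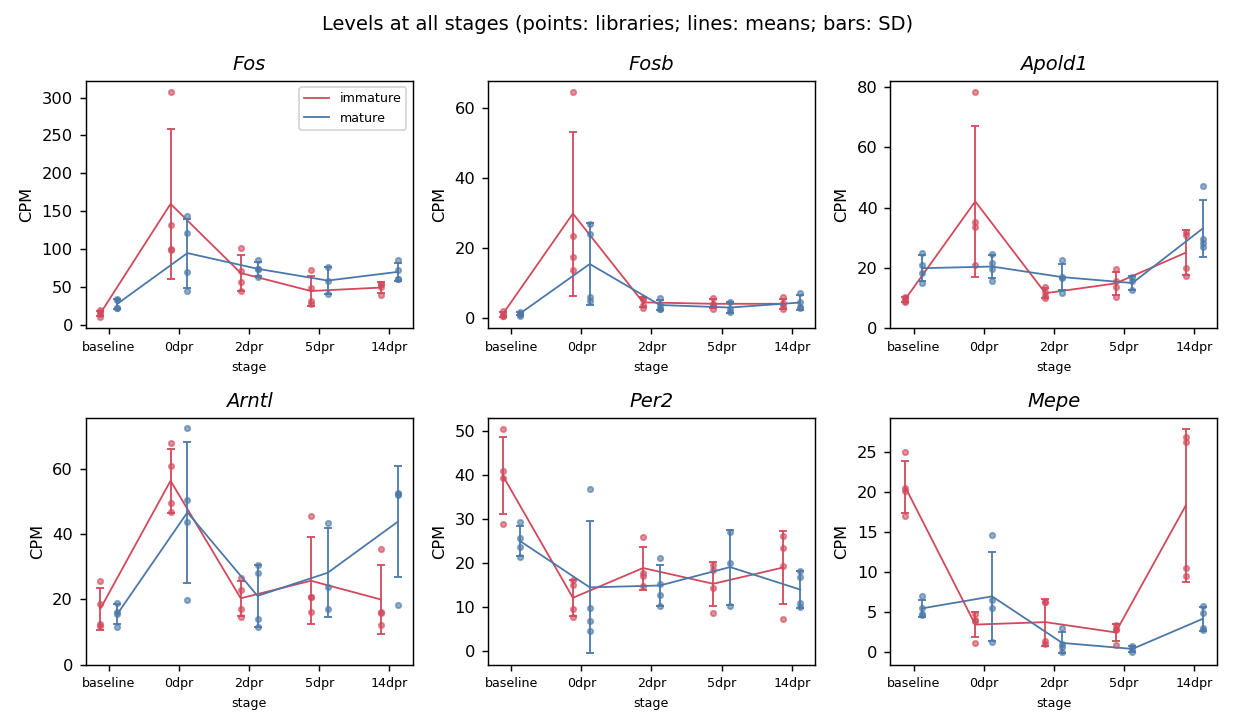
CPM of 6 genes (vertical axes) at baseline and at 0, 2, 5, and 14dpr in immature and mature mice, with points for libraries, lines through the means and bars for the SD (n = 4, apart from mature 5dpr with n = 3). In immature mice the means of Fos, Fosb, Apold1 and Arntl are highest at 0dpr, and those of Per2 and Mepe are lower at 0dpr than at baseline.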

How the data were processed

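RNA was sequenced in 40 samples of 10 groups, and 39 libraries were analysed, since mature 5dpr replicate 2 was not analysed here. Per the labels, total RNA was made into stranded libraries and sequenced on separate runs, and which library was in which run is not given, so a run effect was not tested. Mapping and counting by the authors used STAR 2.5.2a and GRCm38, and the deposited counts are whole numbers for 48733 genes, with a filtered table of 21204 genes whose rule is not given in the sources used here. The deposited normalized signal equals TMM-scaled CPM to a relative difference of 5e-15 and was used for that check and for gene names.

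Counts of the filtered table were fitted with edgeR 4.0.16 (R 4.3.3, quasi-likelihood, TMM, all 39 libraries, 1 coefficient for each group). P-values were adjusted by Benjamini-Hochberg over 21204 genes, with a threshold of 0.05. The gene lists and members were chosen with earlier results of these data known. On simulated counts for this comparison (21204 genes, 200 changed), the test called 56% of 100 genes changed 2-fold and 83% of 100 changed 4-fold. Of 140 calls, 1 was false. In the data, pairs of immature libraries differed by 12.0 to 117 times the counting variance at 0dpr and by 6.39 to 26.3 times at baseline. Whether the simulated rates hold for libraries that differ as much as those at 0dpr was not tested. Total counts were compared by an exact two-sided permutation test (p = 0.971, smallest possible 0.0286). Genes were named by rule: the 12 largest changes in each direction among genes called with and without 0dpr replicate 1, with a mean of at least 1 CPM and groups that did not overlap (469 higher and 313 lower genes met this), up to 5 called members of each list, and the 5 smallest p for the difference between ages. Clock, Per3, Hlf, Nfil3, Bhlhe40, Nr1d1, Jun, Junb, Ccn1, Btg2, Klf4, Srf, Spry2, Dusp10, Col1a1, Sost, Ms4a1, Pecam1 and Adipoq, and the genes of the closing section, were named after their values were seen. Where no library of a group held a read, the fold is given as a lower bound against 3 reads per library. Alternatives were RLE size factors, DESeq2 1.42.0, edgeR's filter or none on the full table, the 8 libraries alone, the replicate number as a block, a muscle score and, added after seeing the data, an erythroid score as covariates, other thresholds, and each library left out. Replicate numbers 2, 3 and 4 occur in both groups, and deviations of same-numbered libraries had correlations of -0.0136 to 0.0247, so the numbers were not taken as pairs. No pair of libraries of a group was a duplicate (at least 6.39 times the counting variance). Nothing says which animals the libraries came from, so the p-values measure the spread between libraries. That spread, and the SE, were estimated over all groups of the series, except where the 8 or 16 libraries alone are named.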

Additional observations from a re-analysis of the deposited data

Results flagged for a closer look

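Among 122 sets of 4 libraries checked for a lone extreme value, 11 were flagged, and chance flags about 1 in 20. At 0dpr these were replicate 1 for Cxcl1 (40.0 CPM), early feedback regulators (mean log2 CPM 5.50), liver genes (8.32) and lung genes (0.16), and replicate 3 for Mepe (1.09 CPM). At baseline these were replicate 3 for Naip1 (0 CPM), replicate 6 for immediate early genes (mean log2 CPM 3.47), replicate 4 for matrix genes (9.46), and replicate 2 for glucocorticoid and metallothionein genes (6.59), monocyte and macrophage genes (5.43) and erythroid genes (8.30). The change from baseline to 0dpr differed between ages by a test of that difference for Scgb2b27 (-3.29, immature minus mature, log2), Mucl2 (-3.06) and Apold1 (2.11).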

How the results depend on the processing

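The number of genes changed in immature mice (2257; 1268 higher, 989 lower) moved with several choices. It was 48 (34 higher, 14 lower) with the spread of the 8 libraries alone, 811 (602 and 209) with a muscle score as a covariate, 328 (215 and 113) with an erythroid score, chosen after the data were seen, 647 (430 and 217) at an adjusted p below 0.01, and 1007 (530 and 477) with at least a 2-fold change. DESeq2 called 1959 genes higher and 1240 lower. Leaving out each of the 8 libraries in turn gave 806 to 3413 genes, 624 to 1509 higher and 154 to 1958 lower, with the lowest total without 0dpr replicate 3 and the highest without 0dpr replicate 2. In mature mice the count of 4775 ranged from 3099 to 5451 over such fits. The difference between ages, called for 3 genes, was called for 19 by DESeq2, 0 with the 16 libraries alone, 1 at 0.01, and 1 to 9 with a library left out. A fit with a replicate block called 2310 genes (1036 higher, 1274 lower), and 148 of the 165 named genes that were called were also called in it. The difference in total count (139770) ranged from -1322000 without 0dpr replicate 3 to 968880 without 0dpr replicate 1 and was -53933 without baseline replicate 2. Signs turned with a library left out in Gdf15 (-0.85 without 0dpr replicate 1, up to 4.55), in Col1a1 (-0.62 to 0.058, the latter without 0dpr replicate 3) and in Nr1d1 (-0.19 without baseline replicate 6 and -0.14 without 0dpr replicate 1, up to 0.38), and in Nr1d1 with the erythroid score (-0.19). Where a call was lost, the cause was not tested. Each named gene was counted once in each alternative. Sign and side of the threshold were kept in 2037 such cases, the call was lost in 705 and gained in 3, and the sign turned in 5. With 4 libraries a group, changes near 2-fold were often missed in simulated counts, and genes under 3 reads have no usable fold.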

Other observations

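The 48 genes called from the spread of the 8 libraries alone included genes on no list, and those named here were picked after their values were seen, with no test of a shared function. All 48 had groups that did not overlap, as had 13.2% of all genes tested, and the calls rest on these same libraries. Of the 48, 46 were called in the fit of all libraries, 41 without 0dpr replicate 1, and 39 in all 8 fits with a library left out. Ghr, the growth hormone receptor, stood at 118, 127, 124 and 116 CPM at baseline and at 299, 207, 350 and 228 CPM at 0dpr (log2 fold change 1.16 ± 0.18, adjusted p = 0.000148). Every 0dpr library was above the narrow range of baseline. Irs1, an adaptor of insulin and IGF receptors, stood at 107, 139, 158 and 94.3 CPM and then at 277, 265, 285 and 246 CPM (1.11 ± 0.15, adjusted p = 3.69e-05). Socs2, a feedback inhibitor of growth hormone signalling, rose by 1.21 (adjusted p = 0.000148), and Igfals, which binds IGF in plasma, by 1.87 (adjusted p = 0.0384), though its adjusted p was 0.0921 without replicate 1. Slc38a4, an amino acid transporter, stood at 21.8, 29.4, 34.7 and 19.9 CPM and then at 137, 73.2, 104 and 81.5 CPM (1.90 ± 0.24, adjusted p = 7.52e-06). Tshr, the thyrotropin receptor, rose by 1.90 (adjusted p = 0.000165), from 2.87 to 7.43 CPM to 16 to 18.8 CPM.

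Among the other genes of this set, Mcam, an adhesion molecule of vessel walls, stood at 32.1, 32.2, 32.3 and 29.4 CPM at baseline and at 61.2, 68.2, 99 and 95.4 CPM at 0dpr (1.36 ± 0.15, adjusted p = 1.91e-06), and its means stayed at 84.7 to 96.9 CPM at 2, 5, and 14dpr. Ptges, the inducible prostaglandin E synthase, stood at 10.1, 11.5, 14.3 and 10 CPM and then at 35, 28.1, 30.5 and 25.5 CPM (1.37 ± 0.16, adjusted p = 4.16e-06). Plat, the tissue plasminogen activator, rose by 1.37 (adjusted p = 0.0018), and Tnfrsf12a, the receptor of the cytokine TWEAK, by 1.68 (adjusted p = 0.000608). Among the 14 lower genes, Cox17, a copper chaperone of cytochrome oxidase, stood at 9.6, 11.4, 9.42 and 11.8 CPM and then at 3.44, 4.19, 2.82 and 3.9 CPM (-1.56 ± 0.22, adjusted p = 3.73e-05). Angptl7 fell by 1.74 (adjusted p = 0.00291), Pla2g7 by 0.94 (adjusted p = 0.00339) and Tspan4 by 0.99 (adjusted p = 0.00197). Clec1b and Ackr4 were called from the 8 libraries and not in the fit of all libraries (adjusted p = 0.0883 and 0.0631).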
